A study of Mus musculus with 2 samples.

Results

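The regions described are 260 Ring1b intervals that were called in 1 of 2 ChIP runs only, and they are named run-1-only intervals here. They were chosen from the authors' interval tracks. An interval of run 1 was taken if it overlapped no run 2 interval by 1 bp or more and if the authors' table assigned it to at least 1 gene. Of 465 run 1 intervals, 388 (83.4%) lay outside run 2, and 260 (55.9%) of all run 1 intervals were also assigned to a gene. Both tracks together held 4403 intervals. Of the 3938 from run 2, 3855 (97.9%) lay outside run 1. The choice therefore used the calls of both runs and the authors' gene assignment, and heights in run 2, overlap and distance to a gene are given as descriptions only.

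Ring1b binding was measured by ChIP-seq, which sequences the DNA pulled down with a protein, in dissociated incisor pulp of CD1 mice on postnatal day 5. The mice had received 1 dose of 3.3 µg per g of 5-ethynyl-2'-deoxyuridine (EdU), a thymidine analogue that enters newly made DNA, 24 h earlier, and EdU-positive cells were sorted. By the labels there was 1 ChIP sample for Ring1b and 1 sample of input DNA, alike in strain, age, tissue and EdU dose. The deposited tracks nonetheless carry 2 numbered replicates of the ChIP, here run 1 and run 2. No source used here says whether the runs came from separate animals or how many animals were pooled. They were counted as 1 sample, so no p-value was computed. A ChIP track holds no expression, so the labelled tissue was not checked against marker genes. The depth of each run is unknown, and the input was not analysed here.

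Ring1b, encoded by Rnf2, is the E3 ubiquitin ligase of Polycomb repressive complex 1 (PRC1), which adds ubiquitin to histone H2A. PRC1 is known for keeping developmental regulator genes silent, and it binds mostly at CpG-rich gene starts. In the continuously growing mouse incisor, mesenchymal stem cells feed transit-amplifying cells, which divide before they form odontoblasts and pulp.

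The promoter windows printed next come from RefSeq (GRCm38.p6, the assembly that mm10 names; 250 bases before the start and 50 after it) and are shown because each lay wholly inside a run-1-only interval. Capitals mark CpG dinucleotides, in which Polycomb-bound promoters are known to be rich. The windows are of the C57BL/6J reference, and CD1 mice may differ from it. Cisd1, Herpud1, Derl2 and Jkamp were under 4 of the 5 highest such intervals (that of 2610044O15Rik8 is not shown), Rad23b had the most CpG dinucleotides and Calr4 the fewest. Cisd1 encodes an iron-sulphur protein of the outer mitochondrial membrane (chr10:71344800-71345099, minus strand). Herpud1 (chr8:94386179-94386478, plus strand), Derl2 (chr11:71019254-71019553, minus strand) and Jkamp (chr12:72085589-72085888, plus strand) encode membrane proteins of the endoplasmic reticulum that take part in the degradation of misfolded proteins. Rad23b (chr4:55349792-55350091, plus strand) encodes a DNA repair and proteasome shuttle protein, and Calr4 (chr4:109234235-109234534, plus strand) a calreticulin family protein.
Cisd1: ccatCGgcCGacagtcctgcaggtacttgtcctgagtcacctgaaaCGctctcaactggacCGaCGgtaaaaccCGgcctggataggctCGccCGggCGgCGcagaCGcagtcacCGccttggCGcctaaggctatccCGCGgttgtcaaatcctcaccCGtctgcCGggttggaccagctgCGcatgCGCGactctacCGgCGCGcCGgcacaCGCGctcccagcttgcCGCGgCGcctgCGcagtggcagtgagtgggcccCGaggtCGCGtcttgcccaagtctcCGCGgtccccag
Herpud1: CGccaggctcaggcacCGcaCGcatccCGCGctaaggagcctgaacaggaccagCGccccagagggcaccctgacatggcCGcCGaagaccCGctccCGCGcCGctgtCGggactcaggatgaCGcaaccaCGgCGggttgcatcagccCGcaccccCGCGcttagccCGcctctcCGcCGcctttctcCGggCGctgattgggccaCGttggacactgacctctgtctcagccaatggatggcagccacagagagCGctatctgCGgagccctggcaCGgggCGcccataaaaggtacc
Derl2: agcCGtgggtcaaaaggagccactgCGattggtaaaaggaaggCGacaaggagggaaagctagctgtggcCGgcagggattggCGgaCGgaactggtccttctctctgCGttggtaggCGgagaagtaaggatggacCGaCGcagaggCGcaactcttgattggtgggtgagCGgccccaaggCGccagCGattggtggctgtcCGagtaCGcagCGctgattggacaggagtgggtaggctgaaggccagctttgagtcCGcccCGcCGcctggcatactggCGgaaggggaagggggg
Jkamp: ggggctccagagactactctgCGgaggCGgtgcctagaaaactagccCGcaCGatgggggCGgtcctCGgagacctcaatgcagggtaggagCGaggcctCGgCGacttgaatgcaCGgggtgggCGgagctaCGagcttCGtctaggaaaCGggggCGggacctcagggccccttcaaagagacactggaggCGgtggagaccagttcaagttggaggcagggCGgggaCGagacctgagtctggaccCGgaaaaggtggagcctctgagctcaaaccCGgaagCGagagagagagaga
Rad23b: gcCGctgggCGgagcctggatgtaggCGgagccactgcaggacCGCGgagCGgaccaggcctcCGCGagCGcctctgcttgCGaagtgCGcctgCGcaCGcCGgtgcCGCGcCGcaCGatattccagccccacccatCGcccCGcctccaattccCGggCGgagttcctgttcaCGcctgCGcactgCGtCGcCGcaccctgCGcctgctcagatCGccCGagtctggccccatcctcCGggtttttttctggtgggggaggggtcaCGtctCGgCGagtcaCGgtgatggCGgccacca
Calr4: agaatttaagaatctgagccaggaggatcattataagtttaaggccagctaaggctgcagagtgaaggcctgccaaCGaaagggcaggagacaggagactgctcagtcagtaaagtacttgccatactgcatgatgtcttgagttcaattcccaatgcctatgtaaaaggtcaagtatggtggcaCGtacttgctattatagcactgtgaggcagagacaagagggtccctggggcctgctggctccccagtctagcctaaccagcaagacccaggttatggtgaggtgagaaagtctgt

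These windows held 35 CpG dinucleotides at Cisd1, 29 at Herpud1, 21 at Derl2, 21 at Jkamp, 36 at Rad23b and 2 at Calr4. Calr4, chosen for having the fewest, had a G and C content of 49%, against 62.3% to 70.7% in the other printed windows. The window of 2610044O15Rik8, which is not shown, lay between, with 11 CpG dinucleotides and 56%. The Calr4 window belongs to a start upstream of the one in the authors' table, from which the summit lay 976 bp.

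The run-1-only intervals reached a height of 6 and a width of 933 bp at most. Their heights, whole numbers on the authors' scale, were 2 in 6 intervals, 3 in 102, 4 in 98, 5 in 46 and 6 in 8. The median height was 4, against 4 in the 74 gene-assigned run 1 intervals that overlapped run 2, here the shared run 1 intervals, and 4 in the 3434 gene-assigned run 2 intervals that lay outside run 1. The upper ends were further apart, at 6, 9 and 66 in these same 3 sets. No run 1 interval of height 7 or more lay outside run 2, but there were only 3 of them, so the exact 95% interval of that share reaches 70.8%. Of run 1 intervals of height 3, 84.7% (150 of 177) lay outside run 2, and of those of height 6, 66.7% did (10 of 15, exact 95% interval 38.4 to 88.2%). Because the scaling of heights is not stated, levels of the runs are set side by side and not tested. Whether a low interval marks Ring1b binding was not tested, because the depth of each run is unknown and the input was not analysed here. Where it does, a low height can come from few cells with Ring1b at a site or from little Ring1b per cell. These cannot be told apart in bulk ChIP.

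The median width was 582.5 bp (range 256 to 933 bp), against 622.5 bp in shared run 1 intervals and 686 bp in run 2 intervals outside run 1. None of the 260 reached 1 kb, against 5.41% (4 of 74) of the shared run 1 intervals and 18.0% (618 of 3434) of the run 2 intervals. Together the 260 covered 147.5 kb. Higher run-1-only intervals were narrower. The median width was 630 bp at height 3, 579.5 bp at height 4, 403 bp at height 5 and 381 bp at height 6. All 8 intervals of height 6 were under 500 bp, as were 82.6% of those of height 5 and 2.94% of those of height 3. From height 3 to 5 this share also rose in shared run 1 intervals, from 0 to 46.2%. In run 2 intervals outside run 1 it rose from 2.72 to 30.3%. At height 6 it was 40% and 21.5% in these sets. Across intervals, Spearman's rho of height and width was -0.51 (n = 260), against -0.47 in the run 1 intervals outside run 2 that were assigned to no gene (n = 128), -0.12 in shared run 1 intervals (n = 74) and 0.30 in run 2 intervals outside run 1 (n = 3434). The narrowing with height was thus also seen in the unassigned intervals, with medians of 625.5 bp at height 3 and 382 bp at height 5. In run 2 intervals outside run 1 the median was 655 bp at height 3, 646 bp at height 5 and 759.5 bp at height 6. These are descriptions, since intervals of 1 library share its depth and the caller's threshold.

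**Figure D1:**
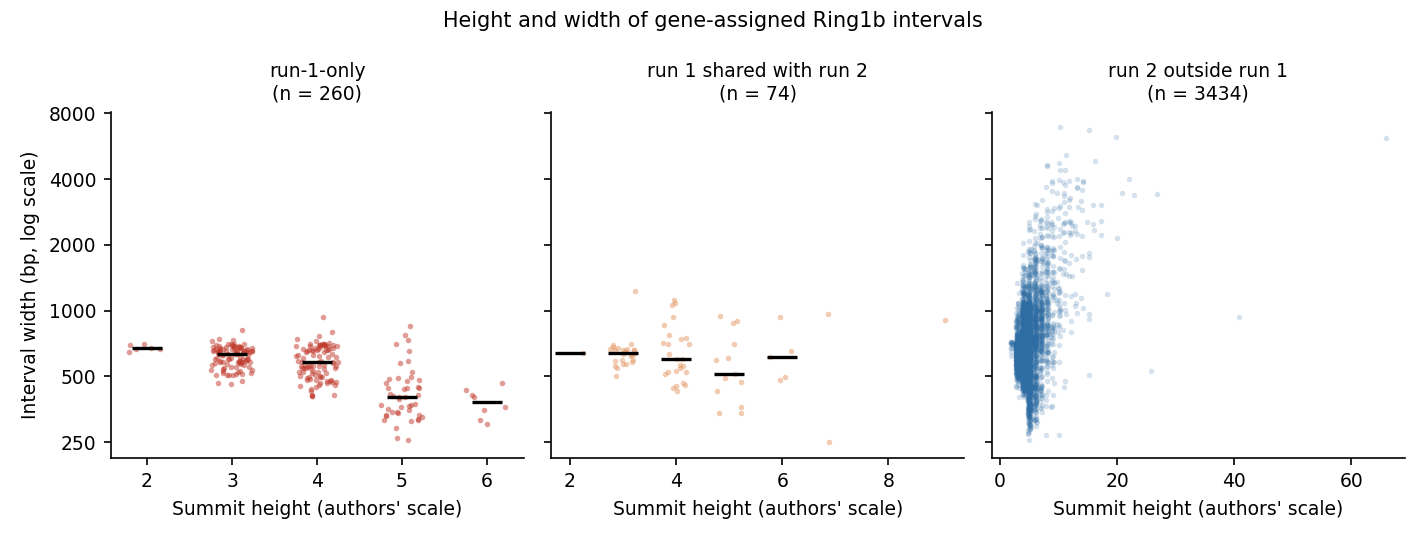
Height (horizontal, authors' scale) and width (vertical, bp, log scale) of each gene-assigned interval, with 1 point per interval, small horizontal jitter and black bars for the median width at heights up to 6 in the run 1 panels. The 260 run-1-only intervals stay at 933 bp or less and get narrower with height, whereas the medians of run 2 intervals outside run 1 are 646 to 705.5 bp at heights 2 to 5 and larger at heights of 6 to 14.

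At most run-1-only intervals for which a run 2 height could be read, it was 0. The authors' table gives the mean height of each run over a gene's regions, which is the height of 1 region where the gene has only 1. Such a value was at hand for 187 of the 260, and the merged region was the run-1-only interval itself in all 260. Of the 73 without a value, 66 had an assigned gene with a run 2 interval elsewhere, against 8 of the 187, and all 11 intervals within 1 kb of run 2 were among the 73. The values therefore come mainly from genes at which run 2 called nothing. In 134 of the 187 (71.7%, exact 95% interval 64.6 to 78.0%) the run 2 height was 0. It was 1 in 32, 2 in 14, 3 in 6 and 4 in 1. The lack of a run 2 call is part of how these intervals were chosen, so these heights are a description only. Heights of 2, 3 and 4 were not below every call. Among the run 2 intervals outside run 1, 16 had height 2, 734 had height 3 and 986 had height 4. In the reverse view, at 1968 run 2 intervals outside run 1, the run 1 height was 0 in 59.8%, 1 in 24.4% and 2 in 13.2%. The highest run 2 value, 4, was at the start of Plaa, which encodes a ubiquitin-binding protein. Run 2 reached 3 at the start shared by Derl2 and the kinetochore gene Mis12, at the nucleoporin gene Nup50, inside Pspc1, a paraspeckle gene, at 2310033P09Rik, in the region of Onecut3 and Atp8b3, and upstream of the pseudogene Rpl31-ps10. By position, the run 2 height was 0 in 60% of the start intervals with a value (27 of 45) and in 80.2% of those inside genes (77 of 96).

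**Figure D2:**
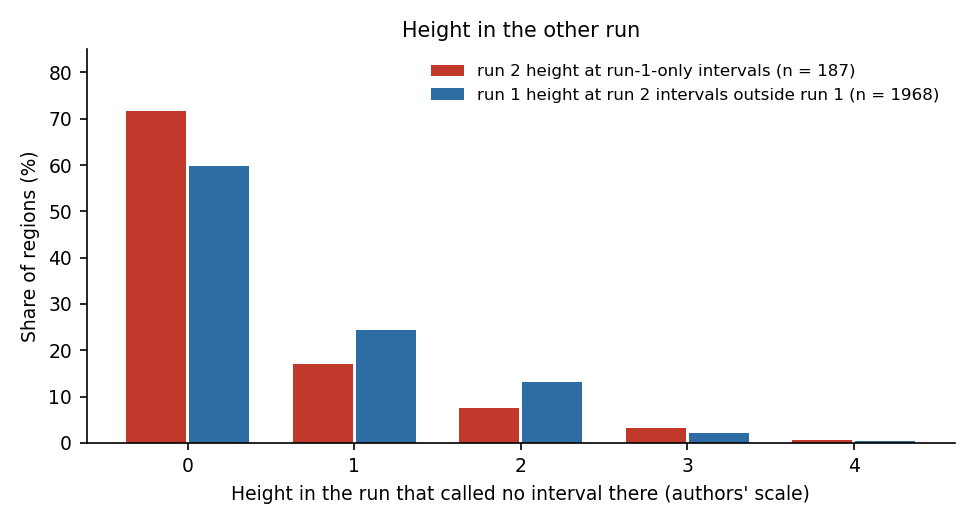
Height in the run that made no call (horizontal, authors' scale) and share of regions with that height (vertical, %), for 187 run-1-only intervals and 1968 run 2 intervals outside run 1 whose gene has 1 region. The 0 bar is the tallest in both, at 71.7% and 59.8%, and 1 run 2 region with a run 1 height of 19 is off the axis.

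Most run-1-only intervals lay inside genes rather than at their starts. An interval was put at a start where it came within 2.5 kb of the start of an assigned gene. This held for 62 of 260 (23.8%, exact 95% interval 18.8 to 29.5%), against 66.2% (49 of 74, 54.3 to 76.8%) of the shared run 1 intervals and 71.7% (2463 of 3434, 70.2 to 73.2%) of the run 2 intervals outside run 1. Inside a gene, more than 2.5 kb from both ends, lay 146 (56.2%, 49.9 to 62.3%), against 9.46% (7 of 74) and 15.0% (514 of 3434) in the same 2 sets. The other 52 comprised 17 at a 3' end, 22 in the upstream flank and 13 in the downstream flank. The intervals behind these shares come from 1 sample, the exact intervals cover counting error only, and the differences were not tested over replicates. Run 1 intervals were also split by overlap with run 2, which lay mostly at starts. The contrast with the shared run 1 intervals is therefore not independent of the choice. Within the 260, the median height was 4 in each of the 5 classes. Heights of 5 or more made up 22.6% both at starts (14 of 62) and inside genes (33 of 146). They made up 17.6% at 3' ends (3 of 17), 13.6% in the upstream flank (3 of 22) and 7.69% in the downstream flank (1 of 13). Of the 8 intervals of height 6, 5 were at a start.

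**Figure D3:**
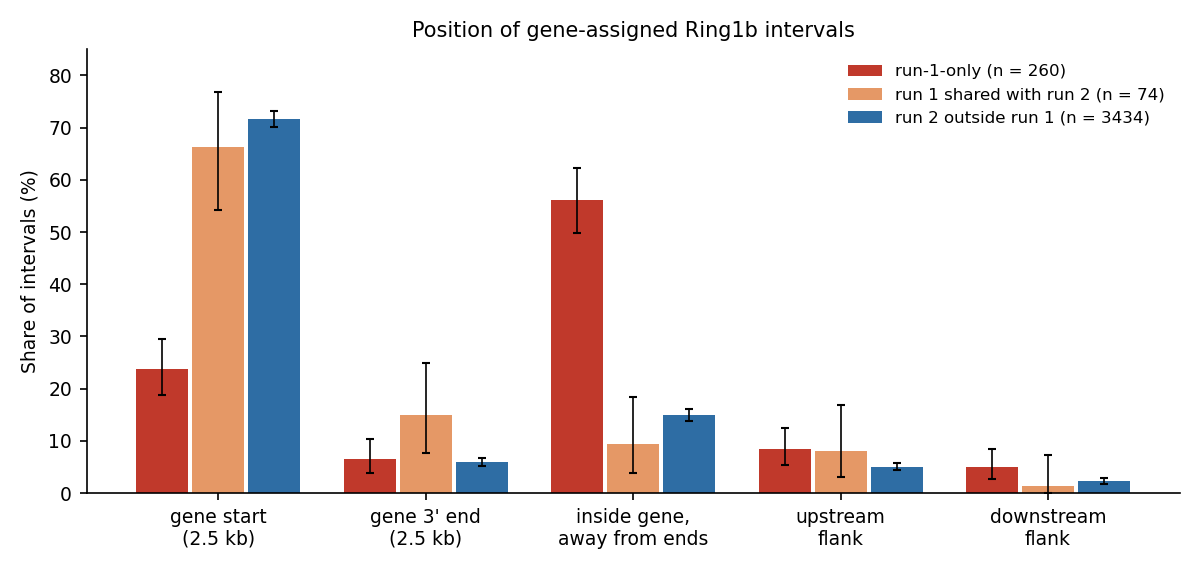
Share of gene-assigned intervals (vertical, %) in 5 position classes, with exact 95% intervals as error bars that cover counting error only. Run-1-only intervals were inside genes in 56.2% and at starts in 23.8%, against 15.0% and 71.7% for run 2 intervals outside run 1.

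The highest run-1-only intervals at starts had a height of 6. Cisd1 had one of 464 bp on chromosome 10 at 71344707 to 71345170, with its summit 79 bp upstream of the start and a run 2 height of 1. Daglb, which encodes an enzyme that makes an endocannabinoid, had one of 401 bp on chromosome 5 at 143464364 to 143464764, with its summit 67 bp inside the gene and a run 2 height of 1. The one at Rps27, a small ribosomal subunit gene, lay on chromosome 3 at 90213773 to 90214073, 256 bp upstream, and the table also assigned it to Rab13 and Nup210l. Its run 2 height was 0. St18, a zinc finger transcription factor gene, had one on chromosome 1 at 6485948 to 6486262, 1135 bp upstream of its start, also with a run 2 height of 0. The fifth lay on chromosome 17 at 84791865 to 84792225, 1246 bp upstream of Lrpprc, which acts in mitochondrial RNA stability. Lrpprc also held a run 2 interval of height 5 on its start, 805 bp away. Run 1 and run 2 therefore both marked the Lrpprc start region, without overlap.

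At height 5, Herpud1 had an interval of 773 bp on chromosome 8 at 94386099 to 94386871, with its summit 180 bp upstream and a run 2 height of 2. Derl2 and Mis12, which start back to back, shared one of 524 bp on chromosome 11 at 71019055 to 71019578, with a run 2 height of 3. Jkamp and L3hypdh, which encodes an enzyme of hydroxyproline breakdown, shared one on chromosome 12 at 72085475 to 72085916, with a run 2 height of 0. Id3, which encodes an inhibitor of basic helix-loop-helix factors and is a target of bone morphogenetic protein (BMP) signalling, had one of 704 bp on chromosome 4 at 136143123 to 136143826, 366 bp upstream. The only run 2 interval of Id3, of height 6, lay 7574 bp from it. Height 5 was also reached at 2610044O15Rik8, 205 bp upstream, and 2727 bp upstream of Evi5l, within 4932443L11Rik. Both had a run 2 height of 0. In all, 11 of 62 start intervals (17.7%, exact 95% interval 9.20 to 29.5%) lay at starts of genes on both strands, against 16.7% (412 of 2463) in run 2. Among them were Cept1 with Dram2, Mttp with Trmt10a, and Hsp90b1 with BC030307.

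Summits of start intervals lay on both sides of the start, 33 upstream and 29 downstream of the nearest one. Their median distance was 502.5 bp, against 637 bp in shared run 1 intervals and 319 bp in run 2 intervals outside run 1. Within 500 bp of the start lay 50% (31 of 62), against 38.8% and 64.0% in these sets.

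Some of the 260 overlapped the 300-base promoter window itself. This was so for 35 intervals and 42 windows of 39 genes, and 13 windows lay wholly inside an interval. The RefSeq table held a window for 250 of the 328 assigned genes. The 42 windows had a median of 24 CpG dinucleotides (quartiles 16 and 27), against 23 in 22 windows overlapped by shared run 1 intervals, 29 in 1624 windows overlapped by run 2 intervals outside run 1 and 7 in all 32851 windows. At least 10 CpG dinucleotides were present in 83.3% (35 of 42, exact 95% interval 68.6 to 93.0%), against 97.2% for run 2 and 43.5% of all windows. The range over the 42 was wide. Akap1, which encodes a mitochondrial anchor for protein kinase A, had 40, and Nup50 and Rad23b had 36, whereas Dab2ip had 5, Birc3 had 7 and Runx3 had 8. The Dab2ip window belongs to a start within the gene. Its interval was classed as inside, with the summit 133894 bp from the start in the authors' table. The windows of genes with a run-1-only interval elsewhere had a median of 17.

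**Figure D4:**
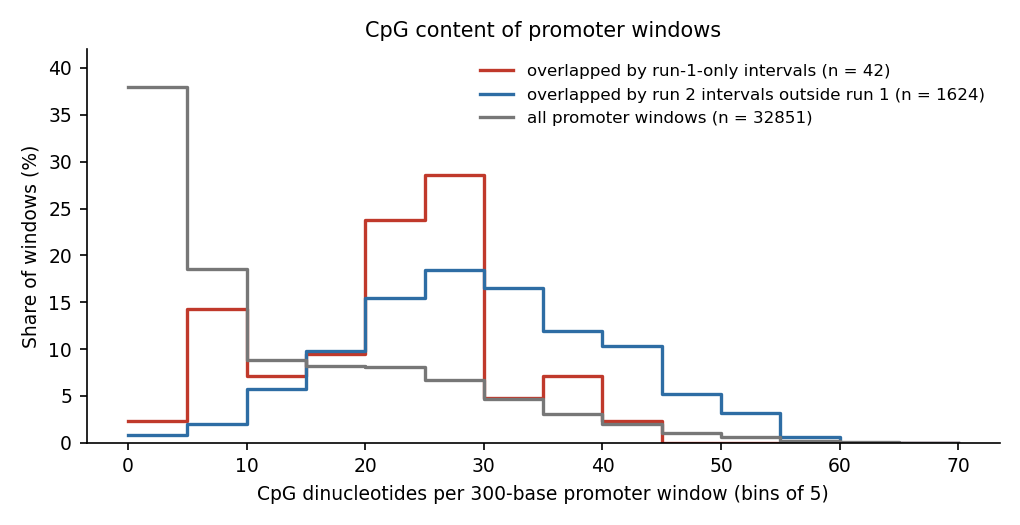
CpG dinucleotides per 300-base promoter window (horizontal, bins of 5) and share of windows (vertical, %). Windows overlapped by run-1-only intervals peak between 20 and 29, with a median of 24, below the run 2 median of 29 and above the median of 7 over all windows.

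Motifs were searched in the windows on both strands, and they were chosen with the data at hand. GCGCA followed directly by TGCGC, the motif of the factor NRF1, occurred in 4 of 42 windows (9.52%), against 2.89% of run 2 windows, 0.971% of all windows and 0 of the 22 windows overlapped by shared run 1 intervals. The 4 belonged to Cisd1, Zfp334, Nup50 and Snap23. A window was counted with any overlap, so a match can lie outside the interval. At Snap23 it did, since it began at base 253 and the interval covered the first 106 bases of the window. GGGCGG, the GC box, occurred in 57.1%, against 79.7% of run 2 windows and 35.7% of all. CCAAT, the box bound by NF-Y, occurred in 47.6%, against 59.1% in the windows of shared run 1 intervals (13 of 22), 35.0% in run 2 and 37.4% of all. CCGGAAG, an ETS factor motif, occurred in 14.3%, against 15.7% and 8.86%. TATAAA occurred in 1 window (2.38%), against 5.30% in run 2 and 13.6% of all. TGACGTCA occurred in 2 (4.76%), against 3.39% and 1.79%, and CACGTG in 2 (4.76%), against 10.2% and 7.15%. In the 22 windows of shared run 1 intervals these 3 shares were 4.55%, 9.09% and 9.09%. The Derl2 window printed above held 5 CCAAT boxes counted over both strands, and that of Hsp90b1, the gene of an endoplasmic reticulum chaperone, held 6. The share of all windows with 5 or more was 0.271%. The endoplasmic reticulum stress elements known from human genes contain CCAAT, and they were searched after these genes had been seen. CCAAT, any 9 bases and CCACG occurred in the Hsp90b1 window, and ATTGG, any 1 base and CCACG in the Herpud1 window from its base 199. They occurred in 0.119% and 0.0365% of all windows. The run-1-only interval covered only 10 bp of the Hsp90b1 window, which a run 2 interval of height 3 also overlapped. None of the CCAAT boxes or stress elements of that window lay in those 10 bp. A match shows letters in the reference only, not binding.

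Inside genes, the run-1-only intervals lay mostly in long genes. The 146 intervals lay in genes of a median length of 120.6 kb, against 100.5 kb for 514 run 2 intervals inside genes and 21.6 kb over all 3993 genes of the table. Long genes offer more sequence away from both ends. Of the 146, 57.5% were in genes over 100 kb, against 50.2% in run 2. They were spread along the gene, with 41, 35, 35 and 35 in 4 equal stretches from start to end. Run 2 intervals numbered 159, 145, 111 and 99 in the same stretches.

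The 3 intervals of height 6 inside genes were at Fat3, Cers3 and Soga2. Fat3, an atypical cadherin gene, had one of 433 bp on chromosome 9 at 16215228 to 16215660, with its summit 162807 bp from the start and a run 2 height of 0. Cers3, a ceramide synthase gene of epidermis, had one of 410 bp on chromosome 7 at 66805185 to 66805594, and Soga2 one of 351 bp on chromosome 17 at 66355087 to 66355437. Both had a run 2 height of 1. Genes of height 5 included Nf1, which encodes the Ras regulator neurofibromin, Sema5b, a semaphorin, Grip1 and Shank2, which encode synaptic scaffold proteins, and Scn3a, a sodium channel. The longest gene was Macrod2 (1994.6 kb), with an interval of height 5 at 49.5% of its length, followed by Magi2 (1477.7 kb) with one of height 4.

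The widest of the 260, of 933 bp and height 4, lay on chromosome 2 at 51629586 to 51630518 near Tas2r134, a bitter taste receptor gene. Next came 852 bp inside Lrrc9 (height 5), 815 bp at Fam89b and Ehbp1l1 (height 3), 799 bp at a start of Runx3 (height 4) and Herpud1 with 773 bp. Gucy2e, Acin1, Tango6, Atp9b and Slco4a1 had intervals of 731 to 762 bp. Runx3, a Runt domain transcription factor gene, also had 3 run 2 intervals of heights 2, 5 and 4, each over 25 kb from the run-1-only one.

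Most gaps to run 2 were over 10 kb. The median gap from a run-1-only interval to the nearest run 2 interval was 189.6 kb, with quartiles of 47.3 and 400.0 kb. In run 1 intervals outside run 2 that were assigned to no gene, the median gap was 381.0 kb. The gaps were not compared with the spacing of run 2 calls. Of the 260, 11 lay within 1 kb of run 2 and 30 (11.5%) within 10 kb. The nearest were at a start: 10 of the 11 within 1 kb, 16 of the 30 within 10 kb (53.3%, exact 95% interval 34.3 to 71.7%) and 46 of the 230 farther away (20%, 15.0 to 25.8%). Run 2 intervals outside run 1 were themselves at a start in 71.7%, so closeness to run 2 and closeness to a start cannot be told apart.

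Just outside the overlap threshold, the interval at Auts2 lay 49 bp from a run 2 interval of height 7. Auts2 encodes a subunit of a variant PRC1, is not in the list of Polycomb subunit genes used here, and held 5 run 2 intervals in all. The next gaps were 91 bp at Taf5, which encodes a subunit of transcription factor TFIID, 118 bp at Shc3, an adaptor gene, 139 bp at Hsp90b1 and 150 bp at Elf2 and 4930577N17Rik. Just inside it, the shared run 1 intervals with the least overlap covered 63 bp at Chordc1, 116 bp at Six2, 118 bp at Foxd3, 157 bp at Tlx3 and 166 bp at Cpeb2 and Gm7854. The farthest run-1-only intervals lay at Naaladl2 (3905286 bp), Cntnap5a (3540186 bp), the Slit receptor gene Robo1 (2204558 bp), the semaphorin receptor gene Plxna2 (1962551 bp) and Gnptab (1724922 bp). All 5 had heights of 3 or 4.

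**Figure D5:**
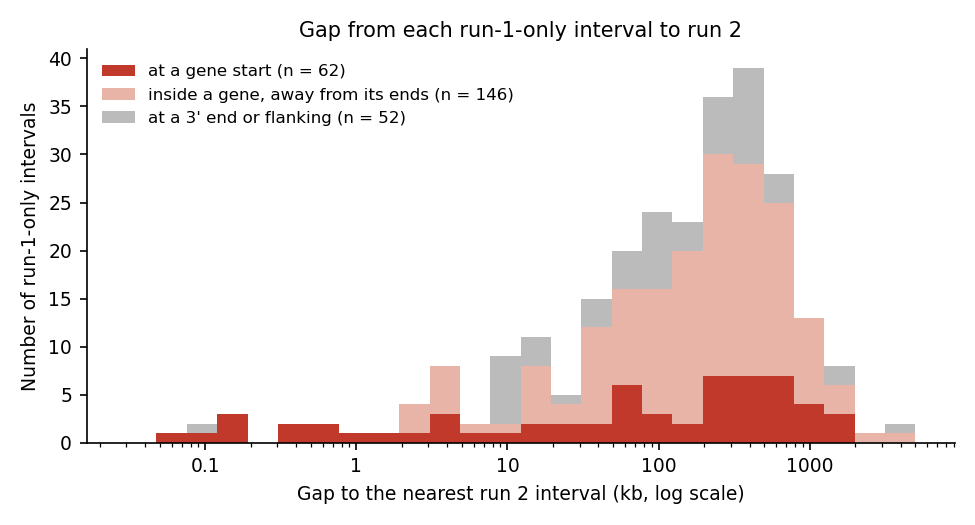
Number of run-1-only intervals (vertical) by gap to the nearest run 2 interval (horizontal, kb, log scale), stacked by position. The median is 189.6 kb, and 10 of the 11 intervals within 1 kb of run 2 are at a gene start.

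The 260 intervals were assigned to 328 genes in 333 pairs, with gaps of up to 9984 bp between interval and gene. A single gene was assigned to 204 of them, 2 genes to 42, 3 to 11 and 4 or more to 3. By their RefSeq biotype, 291 genes were protein-coding, 21 lncRNA and 4 microRNA genes, and 10 identifiers had no entry. Of the 328 genes, 86 (26.2%, exact 95% interval 21.5 to 31.3%) also held a run 2 interval elsewhere. Of all genes of the table, 93.9% (3751 of 3993) did, but the table lists only genes with an interval and the 260 were chosen for lacking a run 2 call, so nothing is read from that difference. A run 2 interval of 6 or more was found at 21 of them (6.40%), and one of 10 or more at Snx3, a sorting nexin gene, and Hoxb3.

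Few of the 260 lay near one another, and the median gap to the next was 2632.5 kb. Taf5, Tcf7l1, Shank2, Slc25a21 and Fam19a4 had 2 each. At Taf5 they lay 4231 bp apart, with heights of 4 and 3, and a run 2 interval of height 4 lay between them and covered the start. Tcf7l1, a Wnt effector of the TCF family, had one of height 3 at 72711810 to 72712389 and one of height 5 at 72755115 to 72755470 on chromosome 6, and no run 2 interval. Shank2 had heights of 5 and 3, and Fam19a4 had 5 and 3. Slc25a21, a mitochondrial carrier gene, had 5 and 3, and its interval of height 3 on chromosome 12 at 56718466 to 56718996 was also assigned to Pax9, which tooth formation requires.

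Of the 328 genes, 16 (4.88%, exact 95% interval 2.81 to 7.80%) were in 1 of 20 gene lists. This share was 7.19% over all genes of the table (287 of 3993) and 7.44% in genes with a run 2 interval (279 of 3751). Of 39 Hox genes, 2 had a run-1-only interval, against 38 with a run 2 interval. It was 1 interval of height 3, on chromosome 11 at 96322263 to 96322779 between Hoxb4 and Hoxb3. Hoxb3 had 11 run 2 intervals with heights of 3 to 11, the nearest 1516 bp away, so this interval lay in a gap of a stretch that run 2 had marked. Among 31 tooth and jaw factors the count was 2, against 24 in run 2. They were Dlx1, with an interval of height 4 and 694 bp, 1765 bp upstream of its start and 510 bp from a run 2 interval of height 4, and Pax9. Among 91 other developmental transcription factors the count was 1, against 78. This was Neurod1, a neuronal factor, with an interval of height 4 located 8644 bp upstream and a run 2 height of 0.

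Signalling genes gave Tcf7l1 among 72 Wnt genes (23 in run 2), Id3 among 44 BMP and TGF-beta genes (15 in run 2) and Maml3, a Notch coactivator, among 27 Notch genes (12 in run 2). Maml3 had height 3 inside the gene, and its run 2 interval of height 3 lay at its start. Axon guidance and neuronal adhesion genes numbered 4 of 80, against 17 in run 2, namely Ntn1, Robo1, Plxna2 and Cntnap5a, all of height 4. Ntn1, which encodes the guidance cue netrin 1, was the only one of these at a start, 753 bp from a run 2 interval of height 3. Among ion channel and synaptic receptor genes, the glutamate receptor gene Grin2a had an interval of height 3 inside the gene and a run 2 height of 0.

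No run-1-only interval was assigned to any of 34 listed Polycomb subunit genes (18 with run 2), 44 FGF and Hedgehog genes (8), 45 cell cycle genes (12), 25 odontoblast and matrix genes (3), 16 incisor stem cell and pericyte markers (4) or 27 housekeeping genes (13). Of markers of other cells in the pulp, Erg, an endothelial factor, had height 4 inside the gene (1 of 13 endothelial markers, against 1 in run 2) and a run 2 height of 0. Marker lists of dental epithelium (15 genes), immune cells (16), glia and neurons (15) and muscle (14) had none, against 2, 1, 5 and 1 in run 2. Run 2 held 3938 intervals and run 1 held 465, which bears on each of these counts, and no list was tested.

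By chromosome, the 260 were most numerous on chromosome 2 (29), followed by 3 and 10 (19 each). Per 100 Mb of annotated span the counts were 16.3 on chromosome 19, 15.9 on 2 and 4.42 on 18, against 212.1, 186.8 and 124.7 for all run 2 intervals. On the X chromosome there was 1 (0.385%), against 47 run 2 intervals (1.19%). It lay inside 1700111N16Rik and had a height of 5.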

How the data were processed

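Per the submitters' processing notes, the authors used BWA and SICER with mm10, with no versions or settings given there. The authors deposited summits with a score, which is the peak height, intervals for each run and merged regions. Their gene table, as deposited, gives signal heights of each run per gene and assigns intervals within 10 kb. How heights were scaled is not stated. A list of addresses of signal tracks was left out.

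Overlap, gaps, positions and widths were computed with pandas 2.3.3, numpy 2.4.6 and scipy 1.17.1 under Python 3.11.15, and figures with matplotlib 3.10.9. Overlap and position functions were tested on 2000 simulated intervals. Position classes had priority from start to 3' end, inside and flank. Shares carry exact Clopper-Pearson 95% intervals, which cover counting error only. The 2 runs were counted as 1 sample, so there is no SD and no test. The intervals and the 20 gene lists were chosen with earlier results of these data known. Promoter windows and biotypes came from RefSeq tables of GRCm38.p6. No genome sequence was used here, so the intervals' own sequence was not measured.

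The text names genes of the 10 widest and 12 highest intervals, the 5 nearest to and 5 farthest from run 2, the 10 highest at a start, genes with 2 intervals, genes in a list and genes with a run 2 interval of 10 or more. Other genes were named after their values were seen. Some results within this rule are not reported here.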

Additional observations from a re-analysis of the deposited data

How the results depend on the processing

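No paired analysis was possible because Ring1b was measured in 1 sample only. Of 31 other settings over 9 results, 12 moved the value, a count by over 1.5 times and a share or median beyond its 95% interval, and 19 did not. The settings for the share inside a gene other than by midpoint, for promoter windows and for run 2 heights were chosen after seeing the data. The number of run-1-only intervals was 249 and 236 when gaps of up to 1 and 5 kb counted as shared, 270 when at least 50% of an interval had to be covered, and 388, just under 1.5 times as many, with intervals of no gene. It was 54 at heights of 5 or more and 8 at 6 or more, since fewer intervals reach them. Windows of 1, 5 and 10 kb around the start put 17.3, 36.5 and 47.7% of the intervals at one, and 62.5% were at a start among those of height 6 or more. The share inside genes was 37.5% and the share with a run 2 height of 0 was 42.9% at heights of 6 or more, both from at most 8 intervals. Counting gaps of up to 1 kb as shared could not move the share with a run 2 height of 0, since none of those 11 intervals has a run 2 height. The median width was 401.5 bp at heights of 5 or more and 381 bp at 6 or more. The share of genes that also held a run 2 interval was 11.6% with run 2 heights of 5 or more and 6.40% with 6 or more. Depth is unknown and no replicate can be left out.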

Other observations

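The genes in this paragraph were picked from the 328 after their values were seen, so they show nothing about a group, and none of the 16 listed immune markers had a run-1-only interval. Cmpk2, an interferon-induced kinase gene, had height 5 with its summit 15 bp upstream of the start, and a run 2 height of 0. Birc3, an inhibitor of apoptosis in NF-kappaB signalling, had height 4 with its summit 178 bp inside the gene, and Ifih1, which encodes a sensor of double-stranded RNA, had height 4 at 2015 bp. Run 2 had a height of 0 at both. Irf1, an interferon regulatory factor gene, had height 4 at 1042 bp, 457 bp from a run 2 interval of height 4. Inside genes, Nod2 and Il12rb2 had height 3 and Inpp5d height 4.

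Of 4 microRNA genes assigned to a run-1-only interval, Mir30a had one of height 3 whose summit lay 669 bp upstream of its start, with a run 2 height of 0. The hairpin of Mir1231 lay inside the interval of height 3 on chromosome 1 at 135453957 to 135454622, which the table assigned to Nav1.

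The 128 run 1 intervals outside run 2 that were assigned to no gene had a median height of 4 and a median width of 602 bp. Their median gap to run 2 was 381.0 kb, and 7 of the 127 with a run 2 interval on their chromosome lay within 10 kb of it.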
